A study of Saccharomyces cerevisiae with 27 samples.

Results

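The break response of the scc2-4 mutant was read from 14 Affymetrix Yeast Genome 2.0 arrays of the 27 in the series: all 7 labelled scc2-4 with a break and all 7 labelled scc2-4 without one. They were chosen by their titles alone, with no measured value involved. The cells were haploid budding yeast, Saccharomyces cerevisiae, of W303 origin. They grew in YEP medium with 2% raffinose and were held in G2/M. The temperature was then raised, galactose followed after 30 minutes, and harvest came 90 minutes later. Per the labels, galactose induced the HO endonuclease, which cuts DNA once, in those cells that hold its recognition site. Both scc2-4 groups therefore had the mutation, the arrest, the higher temperature and galactose in common. The 6 wild-type arrays with a break and the 7 without one went through the same steps and are used for comparison. The group descriptions place the break on chromosome VI, while a characteristic of the same samples writes the chromosome as iv; the labels do not settle this. The labels describe the scc2-4 strain as Scc2 deficient, and the sources used here do not say from how many clones the cells came.

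Scc2 works with Scc4 to load cohesin, the ring that holds sister chromatids together, onto chromosomes. Budding yeast cells load additional cohesin at a double-strand break and, after a break, form new cohesion on chromosomes that were not cut. A break also activates the checkpoint kinases Mec1, Rad53 and Dun1. Dun1 relieves the repression of the genes of ribonucleotide reductase, the enzyme that makes deoxynucleotides, and of other genes induced by DNA damage. The study's groups allow this transcriptional response to be followed in cells labelled deficient in the loader, beside wild-type cells.

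Experiment 1 gave 3 arrays of each scc2-4 group and experiment 2 gave 4 of each. Values are log2 signals after RMA, so a difference of 1 is a doubling of signal. Array medians lay between 10.21 and 10.23 in experiment 1 and between 10.03 and 10.05 in experiment 2, and experiment was kept as a block in every comparison. The 2 genotypes shared 1 distribution of values in experiment 1, while in experiment 2 each had its own, so levels are set across genotypes only within experiment 1 and not across experiments; changes with a break are taken within a genotype and experiment. Arrays of the same group and experiment differed by a median of 0.0355 to 0.121 log2 units per gene. For arrays of different scc2-4 groups in the same experiment it was 0.0592 to 0.140, so these ranges overlapped. The labels call the replicates biological without saying how they were made, so p-values measure the spread between these arrays. In experiment 1 HO had 13.65, 13.54 and 13.45 in scc2-4 with a break and 13.73, 13.70 and 13.71 without one. In experiment 2 it lay between 13.43 and 13.52 with a break and between 13.45 and 13.48 without one. The change of HO was -0.167 in experiment 1 and 0.006 in experiment 2. The galactokinase gene GAL1 lay between 14.05 and 14.10 with a break and between 14.02 and 14.09 without one. Neither passed the test (limma adjusted p = 0.259 and 0.635), and 0 of the 10 measured genes of the galactose list (HO included) passed by limma, with 2 at an unadjusted p under 0.05. SCC2 itself did not pass either, at -0.07 ± 0.03 (SE; limma adjusted p = 0.155), and SCC4 was at 0.02 ± 0.04 (limma adjusted p = 0.823).

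In the scc2-4 arrays labelled with a break, 209 of the 5434 genes tested were higher than in those without one (3.85%) and 214 lower (3.94%), by limma with Benjamini-Hochberg adjustment at 0.05. All 423 had the same sign in both experiments, but they were chosen by a fit over both, which favours such genes. Most of the changes were small. Of the 423, 347 moved by less than 0.25 log2 units, and the median size was 0.156. Among genes past the test, 7 rose and 4 fell by more than 1.5-fold, and 4 rose and 2 fell by more than 2-fold. The median change of all genes was 0.000168. Each experiment on its own gave far fewer or more calls: 11 genes rose and 8 fell in experiment 1, while 346 rose and 456 fell in experiment 2, which had 1 more array per group. Across all genes the changes of the 2 experiments correlated at r = 0.216, a description over genes that share arrays within each experiment.

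**Figure D1:**
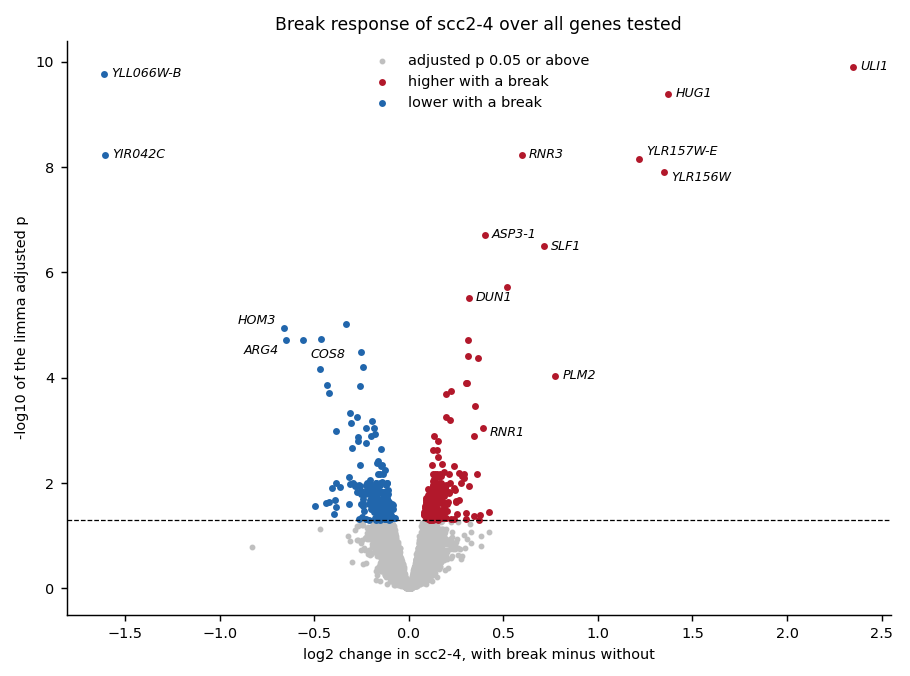
Each point is 1 of the 5434 genes, with the log2 change in scc2-4 (with break minus without, 7 arrays each) on the horizontal axis and -log10 of the limma adjusted p on the vertical axis. The dashed line marks an adjusted p of 0.05. ULI1 stands at 2.35 and HUG1 at 1.37 on the right, YLL066W-B and YIR042C both at -1.61 on the left, and most of the 423 called genes lie within 0.25 of 0.

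ULI1 and HUG1 are the genes given as marks of the break response. ULI1 is a gene of chromosome VI known to be induced in the unfolded protein response, and HUG1 encodes a small inhibitor of ribonucleotide reductase. In scc2-4 with a break ULI1 had 11.43, 11.72 and 11.40 in experiment 1 and 10.68, 10.88, 10.74 and 10.56 in experiment 2. In scc2-4 without a break it had 8.98, 9.29 and 9.35 in experiment 1 and 8.10, 8.34, 8.46 and 8.44 in experiment 2. Within each experiment no array with a break came near any array without one. The change was 2.35 ± 0.08 log2 units, 5.10-fold (SE, n = 7 each; limma adjusted p = 1.25e-10); taken by experiment, it was 2.31 in the first and 2.38 in the second. It was the largest rise of any gene in this comparison.

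HUG1 had 8.52, 8.66 and 8.45 in experiment 1 and 8.45, 8.40, 8.63 and 8.29 in experiment 2 in scc2-4 with a break. Without a break it had 7.12, 7.33 and 7.15 in experiment 1 and 7.09, 7.09, 7.07 and 6.95 in experiment 2. The groups did not overlap in either experiment, and the rise was of 1.37 ± 0.05, 2.59-fold (SE, n = 7 each; limma adjusted p = 4.07e-10). HUG1, like ULI1, was higher in every array labelled with a break than in any labelled without one in the same experiment.

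Of 28 measured genes on a list of damage-induced genes, 11 rose in scc2-4 and 1 fell, against 3.85% and 3.94% of all genes tested, and the list's median change was 0.14. The list was chosen with earlier results of these data known, and holds ULI1 and HUG1, the genes given as marks of the break response. Its count is therefore not independent of those results. ULI1 and HUG1 led the list. They were followed by PLM2, which encodes a protein with a forkhead-associated domain, RNR3, the damage-induced large subunit of ribonucleotide reductase, and its partners. PLM2 had 8.98, 8.95 and 8.82 in experiment 1 and 8.40, 8.33, 8.59 and 8.38 in experiment 2 with a break. Without a break PLM2 had 8.03, 8.54 and 7.94 in experiment 1 and 7.57, 7.39, 7.82 and 7.73 in experiment 2. Within each experiment the PLM2 groups were separate, and it rose by 0.77 ± 0.09 (SE, n = 7 each; limma adjusted p = 9.08e-05).

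RNR3 had 9.06, 9.03 and 9.00 in experiment 1 and 9.02, 9.05, 9.15 and 9.04 in experiment 2 in scc2-4 with a break. Without a break RNR3 had 8.41, 8.53 and 8.48 in experiment 1 and 8.42, 8.41, 8.44 and 8.48 in experiment 2. In each experiment the gap between the RNR3 groups was wider than either group. RNR3 rose by 0.60 ± 0.03, 1.51-fold (limma adjusted p = 5.91e-09).

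The other subunits of the enzyme rose too. RNR1, the large subunit of undamaged cells, rose by 0.39 ± 0.06 (limma adjusted p = 0.000915). RNR2, a small subunit, had 13.23, 13.20 and 13.23 in experiment 1 and 13.24, 13.28, 13.31 and 13.34 in experiment 2 with a break. Without a break RNR2 had 13.05, 13.06 and 13.01 in experiment 1 and 12.88, 12.92, 12.88 and 12.89 in experiment 2. The RNR2 groups were separate within each experiment, by more in experiment 2. RNR2 rose by 0.31 ± 0.04 (limma adjusted p = 0.000127), by 0.18 in experiment 1 and by 0.40 in experiment 2. That difference between experiments passed the test of it (0.22, limma adjusted p = 0.0485). RNR4, the other small subunit, rose by 0.22 ± 0.03 (limma adjusted p = 0.000635).

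The 12 measured genes of ribonucleotide reductase and its regulators had a median change of 0.20. Of them 7 rose and 0 fell, against 3.85% and 3.94% of all genes. Beside HUG1 and the 4 subunits, those that rose were DIF1, which imports the small subunits into the nucleus, and WTM1, which anchors them there. WTM1 was singled out after its values were seen. DIF1 had 10.37, 10.58 and 10.68 in experiment 1 and 10.31, 10.28, 10.29 and 10.15 in experiment 2 with a break. Without a break DIF1 had 10.08, 10.22 and 10.21 in experiment 1 and 9.77, 10.02, 9.91 and 10.02 in experiment 2. The DIF1 groups were separate within each experiment, and the gene rose by 0.34 ± 0.05 (limma adjusted p = 0.00125). WTM1 rose by 0.13 ± 0.03 (limma adjusted p = 0.00821).

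Among 20 measured checkpoint genes 2 rose and 1 fell, against 3.85% and 3.94% of all genes. DUN1, the kinase that acts on ribonucleotide reductase, had 10.04, 10.08 and 10.01 in experiment 1 and 10.27, 10.23, 10.28 and 10.20 in experiment 2 with a break. Without a break DUN1 had 9.72, 9.81 and 9.80 in experiment 1 and 9.90, 9.87, 9.89 and 9.90 in experiment 2. It rose by 0.32 ± 0.03 (limma adjusted p = 3.05e-06) and its groups were separate within each experiment. RAD53, the kinase above DUN1, rose by 0.20 ± 0.05 (limma adjusted p = 0.0331), a call that held in 7 of the 14 fits that each left out 1 array, with an adjusted p of up to 0.0693. RAD9, the adaptor that brings Rad53 to be activated, fell by 0.16 ± 0.04 (limma adjusted p = 0.0225), and its call was lost without array 3 of experiment 2 of scc2-4 without a break, at an adjusted p of 0.0501. TOS4, a relative of PLM2, rose by 0.19 ± 0.05 (limma adjusted p = 0.0295), which held in 9 of those 14 fits, with an adjusted p of up to 0.0614.

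Repair genes were taken as separate lists, to be read against 3.85% rising and 3.94% falling among all genes. Of 26 measured genes of end resection and strand exchange 4 rose and 0 fell, with a median change of 0.05. Among them was RFA2, a subunit of the protein that coats single-stranded DNA, at 0.18 ± 0.03 (limma adjusted p = 0.00431). RAD54 and RDH54, translocases of strand exchange, did not pass, at 0.14 ± 0.05 (limma adjusted p = 0.113) and -0.02 ± 0.04 (limma adjusted p = 0.838). By limma 0 of 6 genes of end joining passed (3 at an unadjusted p under 0.05) and 0 of 8 of the Smc5/6 complex (0 unadjusted), and of 27 of excision repair and translesion synthesis 1 rose and 1 fell.

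Of 13 measured genes of the cohesin ring, its loader and regulators, 3 rose and 0 fell, against 3.85% and 3.94% of all genes. The largest change was in ECO1, the acetyltransferase that establishes cohesion, which also lies next to ULI1 and is described with that region. IRR1, a ring subunit, rose by 0.17 ± 0.04 (limma adjusted p = 0.0171). PDS5, which binds the ring, rose by 0.15 ± 0.04 (limma adjusted p = 0.0461), a call that held in 3 of the 14 fits that each left out 1 array, with an adjusted p of up to 0.0946. MCD1, the kleisin of the ring, was at 0.13 ± 0.05 (limma adjusted p = 0.123), SMC1 at 0.06 ± 0.04 (limma adjusted p = 0.344) and SMC3 at -0.01 ± 0.04 (limma adjusted p = 0.899).

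In wild-type cells, on 6 arrays with a break and 7 without, 238 genes rose (4.38%) and 167 fell (3.07%). The wild-type and scc2-4 comparisons share no arrays. Both called 66 genes higher, which is 31.6% of the rises in scc2-4 and 27.7% of those in wild type. Both called 31 lower, which is 14.5% of the falls in scc2-4 and 18.6% of those in wild type, and 4 genes were called in opposite directions. The break effect in scc2-4 minus that in wild type, fitted over all 27 arrays, passed the test for 70 genes in the positive direction (1.29%) and 69 in the negative (1.27%). Of these 139, 59 were among the 423 called in scc2-4. In experiment 1 alone 11 genes passed this test of the difference, and in experiment 2 alone 139.

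**Figure D2:**
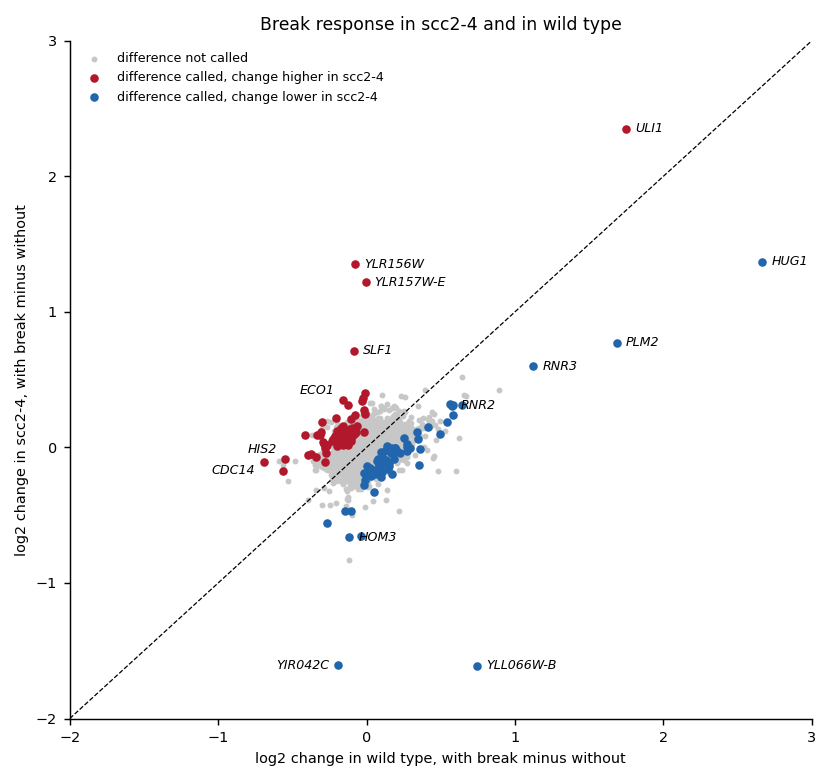
Each point is 1 gene, with its log2 change (with break minus without) in scc2-4 on the vertical axis and in wild type on the horizontal axis. Coloured points passed the test of the difference between genotypes (limma adjusted p under 0.05), and the dashed line marks equal changes. HUG1, PLM2 and RNR3 lie below the line, ULI1 above it, and YLR156W, YLR157W-E, SLF1 and YIR042C near 0 on the wild-type axis.

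Among the damage-induced genes the difference was called in the negative direction for 7 of 28 and in the positive direction for 1, ULI1. Over all genes these shares were 1.27% and 1.29%. HUG1 changed by 1.37 in scc2-4 and 2.67 in wild type, a difference of -1.30 ± 0.13 (SE; limma adjusted p = 2.37e-07). In experiment 1 wild-type cells had 9.82, 10.12 and 9.54 with a break, all above the scc2-4 ones. Wild-type cells without a break had 7.30, 7.50 and 7.23, which overlapped those of scc2-4 without a break. PLM2 changed by 0.77 in scc2-4 and 1.69 in wild type (difference -0.91 ± 0.19, limma adjusted p = 0.00796).

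RNR3 changed by 0.60 in scc2-4 and 1.12 in wild type (difference -0.53 ± 0.11, limma adjusted p = 0.0116). Its wild-type values fell apart by experiment, with a change of 0.75 in experiment 1 and 1.45 in experiment 2. Within the experiments the difference between genotypes was -0.20 in experiment 1, which did not pass, and -0.82 in experiment 2. RNR2 changed by 0.31 in scc2-4 and 0.58 in wild type (difference -0.27 ± 0.07, limma adjusted p = 0.0368), and DUN1 changed by 0.32 in scc2-4 and 0.56 in wild type (difference -0.25 ± 0.06, limma adjusted p = 0.0187). RNR1 changed by 0.39 in scc2-4 and 0.65 in wild type, and RNR4 by 0.22 in scc2-4 and 0.38 in wild type; neither difference passed (limma adjusted p = 0.143 and 0.0801). DIN7, a mitochondrial nuclease gene, and PCL5, a cyclin gene whose product marks Gcn4 for degradation, were singled out after their values were seen. DIN7 rose by 0.24 in scc2-4 and 0.58 in wild type (difference -0.34 ± 0.08, limma adjusted p = 0.0176). PCL5 fell by 0.22 in scc2-4 and was at 0.10 in wild type (difference -0.32 ± 0.06, limma adjusted p = 0.00523).

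ULI1 went the other way, with 2.35 in scc2-4 and 1.75 in wild type (difference 0.60 ± 0.12, limma adjusted p = 0.00571). In experiment 1 wild-type cells had 10.79, 10.85 and 10.55 with a break and 8.89, 9.12 and 9.00 without one, so the wild-type arrays with a break were all below the scc2-4 ones while those without a break overlapped. The difference was 0.58 in experiment 1 and 0.62 in experiment 2, and neither passed on its own. DIF1 also differed in this direction, at 0.34 in scc2-4 and -0.03 in wild type (difference 0.38 ± 0.08, limma adjusted p = 0.00859). In the cohesin list SMC1 was at 0.06 in scc2-4 and rose by 0.34 in wild type (difference -0.28 ± 0.05, limma adjusted p = 0.00275). PDS5 was at 0.15 in scc2-4 and 0.41 in wild type (difference -0.26 ± 0.06, limma adjusted p = 0.0169).

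**Figure D3:**
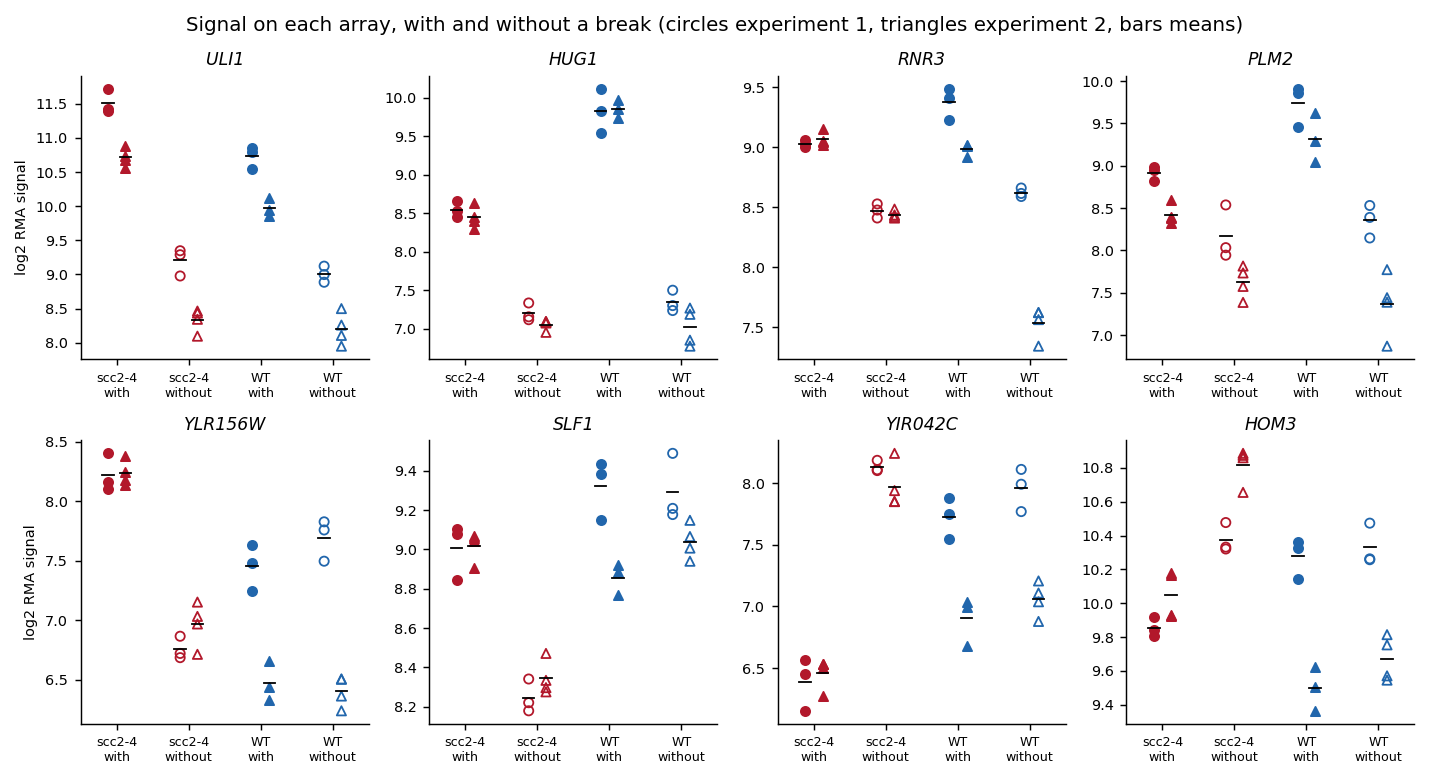
The log2 RMA signal of 8 genes is drawn for every array, with scc2-4 (red) to the left of wild type (blue) and arrays with a break (filled) to the left of those without (open); circles are experiment 1, triangles experiment 2, and bars the mean of each set. ULI1, HUG1, RNR3 and PLM2 rise in both genotypes. YLR156W, SLF1, YIR042C and HOM3 differ between the scc2-4 groups labelled with and without a break. There YLR156W lay at 8.10 or more with a break and at 7.15 or less without one. Whether these 4 differences come from the break or from other strain differences was not tested. In experiment 2 the levels of the 2 genotypes are on separate scales.

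The genes around ULI1 on chromosome VI changed little in scc2-4 and fell in wild type. In wild type, of the 10 measured genes up to 5 annotated places from ULI1 on either side, 7 fell and 0 rose, against 3.07% falling among all genes, and their median change was -0.29. In scc2-4, 1 of the same 10 fell and 1 rose, against 3.94% and 3.85% of all genes, with a median of -0.06. The difference between genotypes was called for 6 of the 10, each in the positive direction, against 1.29% of all genes. The position of the HO site is not given in the sources used here, so the genes are ordered only by their places from ULI1.

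CDC14, the phosphatase of mitotic exit, lies 2 places from ULI1. In scc2-4 with a break it had 10.97, 10.96 and 11.01 in experiment 1 and 10.52, 10.44, 10.39 and 10.44 in experiment 2. In scc2-4 without a break CDC14 had 11.02, 11.05 and 11.03 in experiment 1 and 10.55, 10.54, 10.64 and 10.64 in experiment 2. The groups lay close together, though separate, and the fall of 0.10 ± 0.03 (limma adjusted p = 0.0425) held in 6 of the 14 fits that each left out 1 array, with an adjusted p of up to 0.0947.

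In wild type with a break CDC14 had 10.41, 10.43 and 10.57 in experiment 1 and 9.41, 9.50 and 9.35 in experiment 2. In wild type without a break it had 10.93, 10.85 and 10.91 in experiment 1 and 10.38, 10.45, 10.25 and 10.26 in experiment 2. It fell by 0.69 there, by 0.43 in experiment 1 and by 0.91 in experiment 2. The difference between genotypes was 0.58 ± 0.08 (limma adjusted p = 0.000161). It was 0.38 in experiment 1, which did not pass on its own (limma adjusted p = 0.071), and 0.77 in experiment 2.

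ECO1, next to ULI1, had 9.48, 9.51 and 9.36 in experiment 1 and 9.08, 9.05, 8.84 and 8.84 in experiment 2 in scc2-4 with a break. Without a break ECO1 had 9.01, 9.11 and 9.11 in experiment 1 and 8.59, 8.54, 8.69 and 8.67 in experiment 2. Every array with a break was above every one without it in the same experiment, and ECO1 rose by 0.35 ± 0.05 (limma adjusted p = 0.00034). In wild type it was at -0.16 (limma adjusted p = 0.116), and the difference was 0.51 ± 0.07 (limma adjusted p = 0.000195).

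HIS2, on the other side of ULI1 and a gene of histidine synthesis, was at -0.08 ± 0.04 in scc2-4 (limma adjusted p = 0.228) and fell by 0.55 in wild type, a difference of 0.46 ± 0.08 (limma adjusted p = 0.00225). ROG3, an arrestin-related adaptor, was at 0.09 in scc2-4 and -0.42 in wild type (difference 0.51 ± 0.08, limma adjusted p = 0.000236). The actin-binding LSB3 and the amino acid sensor PTR3 differed too, by 0.27 ± 0.07 (limma adjusted p = 0.0423) and 0.31 ± 0.06 (limma adjusted p = 0.00808). For PES4 the difference was 0.23 (limma adjusted p = 0.121) and for MET10, a subunit of sulfite reductase, also 0.23 (limma adjusted p = 0.0622). ATG18, an autophagy gene, was at -0.06 in scc2-4 and -0.22 in wild type, and SMC2, a condensin subunit, at -0.10 in scc2-4 and -0.11 in wild type.

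Up to 25 places from ULI1, with 45 genes measured, 5 rose and 1 fell in scc2-4, against 3.85% and 3.94% of all genes. In wild type 1 rose and 14 fell, against 4.38% and 3.07% of all genes. The difference was called for 12 of the 45, all in the positive direction, against 1.29% of all genes. Over the whole of chromosome VI 11.1% of 117 genes were called in scc2-4, in either direction, against 423 of all 5434 genes. Chromosome IX had the highest share, at 12.2%, and chromosome VIII the lowest, at 5.38%. Chromosome IV, which the labels also name, had 6.68%.

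**Figure D4:**
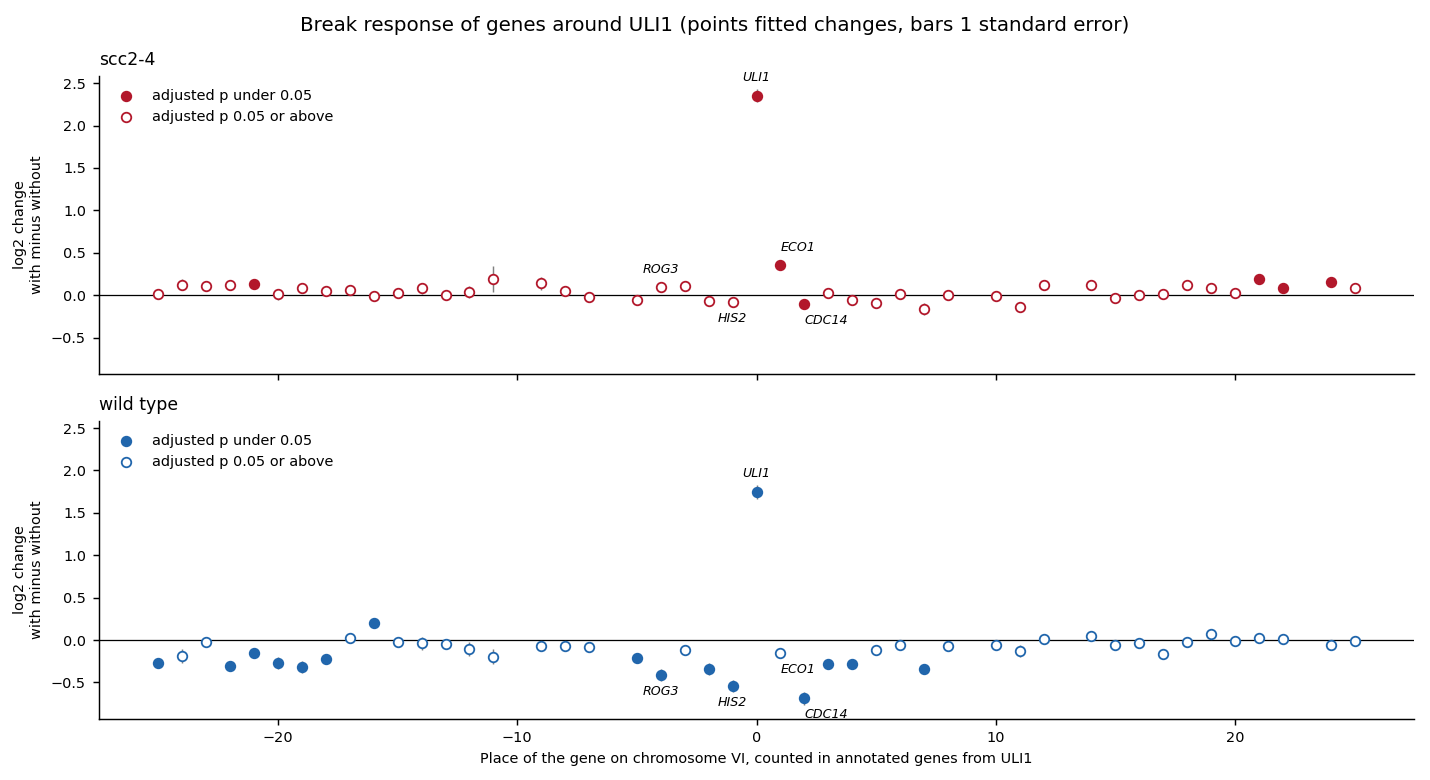
Fitted log2 changes (with break minus without; bars are 1 standard error) are drawn for the measured genes up to 25 annotated places from ULI1, in scc2-4 above and in wild type below, by place and not by distance. ULI1 stands at 2.35 in scc2-4 and 1.75 in wild type. CDC14 and HIS2 lie near 0 in scc2-4, at -0.10 and -0.08, and at -0.69 and -0.55 in wild type.

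Several of the genes with the largest changes in scc2-4 were near 0 in wild type. YLR156W and YLR157W-E, uncharacterised reading frames of chromosome XII that belong to a repeated block holding the asparaginase genes, came next after HUG1. With a break YLR156W had 8.40, 8.10 and 8.17 in experiment 1 and 8.14, 8.38, 8.25 and 8.18 in experiment 2. Without a break it had 6.87, 6.72 and 6.69 in experiment 1 and 6.72, 6.97, 7.03 and 7.15 in experiment 2. The groups were far apart, and YLR156W rose by 1.35 ± 0.07 (limma adjusted p = 1.27e-08), against -0.07 in wild type (difference 1.43 ± 0.12, limma adjusted p = 1.73e-08).

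YLR157W-E rose by 1.22 ± 0.06 in scc2-4 (limma adjusted p = 6.91e-09) and was at -0.01 in wild type. A second, dimmer probe set of it was at 0.04 in scc2-4. ASP3-1, one of the near-identical asparaginase genes, rose by 0.40 ± 0.03 in scc2-4 (limma adjusted p = 1.95e-07) and was at -0.01 in wild type, with a difference of 0.41 ± 0.04 (limma adjusted p = 1.97e-08). Copies in this block are near-identical, so the array cannot say which copy gave the signal.

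SLF1, which encodes an RNA-binding protein of the La family, had 8.84, 9.08 and 9.10 in experiment 1 and 8.90, 9.06, 9.04 and 9.07 in experiment 2 with a break. Without a break SLF1 had 8.18, 8.34 and 8.22 in experiment 1 and 8.30, 8.28, 8.47 and 8.33 in experiment 2. It rose by 0.71 ± 0.05 in scc2-4 (limma adjusted p = 3.19e-07) and was at -0.08 in wild type (difference 0.80 ± 0.09, limma adjusted p = 1.34e-06). In experiment 1 wild-type cells had 9.15, 9.44 and 9.38 with a break and 9.21, 9.18 and 9.49 without one, so of the 4 groups scc2-4 without a break stood lowest.

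ALE1, a lysophospholipid acyltransferase gene, rose by 0.37 ± 0.04 in scc2-4 (limma adjusted p = 4.16e-05) and was at -0.03 in wild type (difference 0.39 ± 0.06, limma adjusted p = 0.000236). SRX1, the sulfiredoxin gene, rose by 0.36 ± 0.07 (limma adjusted p = 0.00662) and its difference from wild type did not pass (limma adjusted p = 0.0594). YPR015C, a zinc finger gene, rose by 0.52 in scc2-4 (limma adjusted p = 1.86e-06) and by 0.65 in wild type. The 3 other large rises were SIP18 (0.42), PAI3 (0.38) and GPX1 (0.37), all with standard errors of 0.10 to 0.11 and calls that held in 5 or 6 of the 14 fits that each left out 1 array.

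The largest falls were of 2 genes near chromosome ends. YLL066W-B had 6.23, 5.90 and 5.94 in experiment 1 and 6.10, 5.85, 5.98 and 6.10 in experiment 2 with a break. Without a break it had 7.74, 7.66 and 7.63 in experiment 1 and 7.50, 7.52, 7.62 and 7.71 in experiment 2. It fell by 1.61 ± 0.06 in scc2-4 (limma adjusted p = 1.69e-10) and rose by 0.75 in wild type, the largest difference described here at -2.36 ± 0.09 (limma adjusted p = 2.98e-15). In experiment 1 wild-type cells had 8.47, 8.33 and 8.32 with a break and 7.64, 7.52 and 7.59 without one, so the groups without a break overlapped. A second probe set of YLL066W-B moved by -0.08 in scc2-4, and the gene belongs to a subtelomeric family of similar sequences, so which copy gave the signal is uncertain.

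YIR042C, an uncharacterised gene, had 6.56, 6.15 and 6.45 in experiment 1 and 6.53, 6.50, 6.27 and 6.53 in experiment 2 with a break. Without a break YIR042C had 8.18, 8.11 and 8.10 in experiment 1 and 8.24, 7.94, 7.85 and 7.85 in experiment 2. It fell by 1.61 ± 0.08 in scc2-4 (limma adjusted p = 5.91e-09) and was at -0.19 in wild type (difference -1.42 ± 0.12, limma adjusted p = 1.73e-08). In experiment 1 wild-type cells had 7.88, 7.54 and 7.75 with a break and 7.99, 8.11 and 7.77 without one, so scc2-4 with a break stood below the other 3 groups.

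COS8, a subtelomeric gene of a family of endosomal proteins, fell by 0.56 ± 0.05 in scc2-4 (limma adjusted p = 1.92e-05) and by 0.27 in wild type (difference -0.29 ± 0.08, limma adjusted p = 0.0401). Of the 89 measured genes among the outermost 5 annotated ones of each chromosome end, 3 rose and 12 fell in scc2-4, against 3.85% and 3.94% of all genes. In wild type 8 rose and 10 fell, against 4.38% and 3.07% of all genes. Their median change in scc2-4 was -0.01. Labels describe the groups with and without a break as cells of one genotype, and the presence of the HO site is the one difference the treatment text gives; other differences between the strains were not tested.

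Genes of amino acid synthesis under Gcn4, the activator of these pathways, fell together in scc2-4. Of 54 measured, 27 fell and 0 rose, against 3.94% and 3.85% of all genes tested. This list too was chosen with earlier results of these data known, so its counts are not independent of them. The median change of the list was -0.12, with -0.09 in experiment 1 and -0.16 in experiment 2, and 49 of the 54 were below 0. In wild type 2 fell and 1 rose, against 3.07% and 4.38% of all genes, with a median of -0.04. The difference between genotypes was called in the negative direction for 9 of the 54, against 1.27% of all genes. It was called in the positive direction for 1, HIS2, the neighbour of ULI1, against 1.29% of all genes.

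HOM3, the aspartate kinase gene, led the list. It had 9.84, 9.80 and 9.92 in experiment 1 and 9.93, 9.93, 10.18 and 10.17 in experiment 2 with a break. Without a break HOM3 had 10.33, 10.32 and 10.48 in experiment 1 and 10.87, 10.66, 10.86 and 10.89 in experiment 2. The groups did not overlap in either experiment, and HOM3 fell by 0.66 ± 0.06 (limma adjusted p = 1.14e-05), against -0.12 in wild type (difference -0.55 ± 0.09, limma adjusted p = 0.000976). In experiment 1 wild-type cells had 10.14, 10.36 and 10.33 with a break and 10.26, 10.26 and 10.47 without one. The scc2-4 arrays without a break overlapped these, while those with a break stood below them all.

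ARG4, the argininosuccinate lyase gene, had 9.56, 9.59 and 9.61 in experiment 1 and 10.00, 9.92, 10.11 and 10.13 in experiment 2 with a break. Without a break ARG4 had 9.99, 10.06 and 10.29 in experiment 1 and 10.81, 10.57, 10.92 and 10.82 in experiment 2. It fell by 0.65 ± 0.06 (limma adjusted p = 1.92e-05), against -0.04 in wild type (difference -0.61 ± 0.09, limma adjusted p = 0.000235). In experiment 1 wild-type cells had 9.57, 9.78 and 9.91 with a break and 9.60, 9.65 and 9.87 without one, so of the 4 groups scc2-4 without a break stood highest.

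ARG7 and HIS1, of arginine and histidine synthesis, both fell by 0.47 in scc2-4 (limma adjusted p = 6.98e-05 and 1.85e-05), with differences from wild type of -0.37 (limma adjusted p = 0.0196) and -0.32 (limma adjusted p = 0.0206). HIS4 fell by 0.43 (limma adjusted p = 0.000139) and LEU9 by 0.41 (limma adjusted p = 0.0125), and neither difference passed (limma adjusted p = 0.159 and 0.446). ARG1 fell by 0.50 ± 0.13 (limma adjusted p = 0.0273), which held in 8 of the 14 fits that each left out 1 array, with an adjusted p of up to 0.0591.

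The remaining large falls were mixed. SNZ1, a vitamin B6 gene, fell by 0.39 (limma adjusted p = 0.0212), YER187W by 0.42 (limma adjusted p = 0.000195) and the subtelomeric YEL076C by 0.42 (limma adjusted p = 0.0228). BSC5 fell by 0.44 and the transposon frame YBL100W-A, which has many copies, by 0.40. Their calls held in 12 and 6 of the 14 fits that each left out 1 array. BSC5 and YER187W were dim, at 4.28 to 6.14 and 5.58 to 6.58 over the scc2-4 arrays, whose medians lay between 10.03 and 10.23. YBL100W-A was at -0.13 in experiment 1 and -0.60 in experiment 2, and YEL076C at -0.12 and -0.65.

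**Figure D5:**
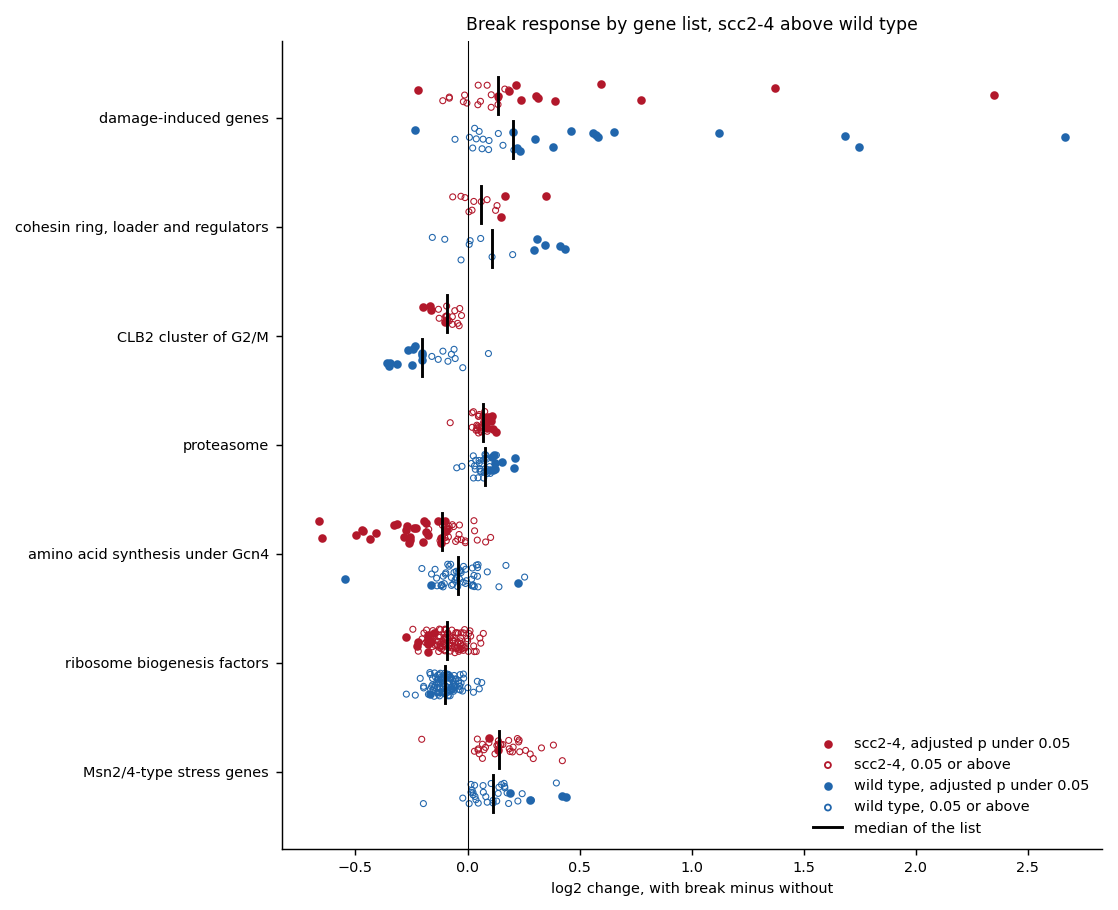
Log2 changes (with break minus without) of every measured member of 7 gene lists are drawn for scc2-4 (red, upper row of each pair) and wild type (blue, lower row); filled points passed the test and black bars mark medians. The Gcn4 list holds 27 filled points below 0 in scc2-4 and 2 in wild type, while 4 of the CLB2 cluster are filled in scc2-4 and 11 in wild type, with 0 of its genes passing the test of the difference.

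Of 20 measured genes of the CLB2 cluster, expressed in G2/M, 4 fell in scc2-4, against 3.94% of all genes, and 11 fell in wild type, against 3.07% of all genes; 0 rose in either. The difference between genotypes was called for 0 of the 20 by limma. In that test 6 of the 20 had an unadjusted p under 0.05, against 945 of all 5434 genes. All 20 had changes below 0 in scc2-4, with a median of -0.09 in scc2-4 and -0.20 in wild type. ALK1, a kinase gene of mitosis, fell by 0.20 ± 0.05 (limma adjusted p = 0.0171). BUD4 and SWI5 fell by 0.17 and 0.16, in 4 and 12 of the 14 fits that each left out 1 array, and the cyclin CLB2 was at -0.13 (limma adjusted p = 0.224). The count of 4 fell to 1 or 2 in 9 of those 14 fits.

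Of 20 M/G1 and daughter cell separation genes 2 fell in scc2-4 and 12 in wild type, against 3.94% and 3.07% of all genes. The difference was called for 3, each in the positive direction, against 1.29% of all genes. The count of 2 in scc2-4 was 0 or 1 in 12 of the 14 fits that each left out 1 array. DSE1, which acts in daughter cell separation, was at -0.17 ± 0.05 in scc2-4 (limma adjusted p = 0.0496) and fell by 0.57 in wild type (difference 0.39 ± 0.10, limma adjusted p = 0.0302). The scc2-4 call for DSE1 held in 2 of the 14 fits that each left out 1 array, with an adjusted p of up to 0.0991. Of 15 genes of G1 and S phase 0 passed in scc2-4 by limma, with 3 at an unadjusted p under 0.05. Of 33 of the replication machinery 2 rose and 2 fell, against 3.85% and 3.94% of all genes.

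Of 37 proteasome genes 7 rose and 0 fell in scc2-4, against 3.85% and 3.94% of all genes. In wild type 9 rose, against 4.38% of all genes. In scc2-4 the list's median was 0.07, and 36 of the 37 were above 0. PRE3, a catalytic subunit, had the largest change among them at 0.13 ± 0.02 (limma adjusted p = 0.00235). The count of 7 was between 2 and 8 over the 14 fits that each left out 1 array. It moved by more than 1.5-fold in 10 of them. Of 34 genes of iron and copper uptake 5 fell and 0 rose, against 3.94% and 3.85% of all genes. FRE1, a ferric reductase gene, fell by 0.26 ± 0.05 (limma adjusted p = 0.0109). That count was between 2 and 7 over the 14 fits and moved by more than 1.5-fold in 11 of them.

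The medians of lists of growth and stress genes differed between the experiments, which was tested gene by gene and not for the lists. Of 104 ribosome biogenesis genes 9 fell and 0 rose in scc2-4 over both experiments, against 3.94% and 3.85% of all genes. The list's median change was 0.06 in experiment 1 and -0.19 in experiment 2. In experiment 1 alone 0 were called lower, against 8 of all 5434 genes. In experiment 2 alone 57 were called lower, against 456 of all 5434 genes. DBP8, an RNA helicase gene of this list, fell by 0.27 ± 0.06 (limma adjusted p = 0.0113), and RRP12 by 0.22 ± 0.05 (limma adjusted p = 0.0127). The count of 9 was 4 or 5 in 7 of the 14 fits, each without 1 array of experiment 2.

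Of 36 stress genes of the type driven by the activators Msn2 and Msn4, 2 rose and 0 fell. Of all genes 3.85% rose and 3.94% fell. Changes of 35 of the 36 were above 0. The count of 2 ranged from 1 to 4 over the 14 fits that each left out 1 array, moving by more than 1.5-fold in 11 of them, and 27 rose with array weights. The list's median change was -0.03 in experiment 1 and 0.29 in experiment 2. In experiment 1 alone 0 were called higher, against 11 of all 5434 genes. In experiment 2 alone 16 were called higher, against 346 of all 5434 genes. SOL4, of the pentose phosphate pathway, was at -0.003 in experiment 1 and 0.74 in experiment 2, and at 0.42 ± 0.14 over both (limma adjusted p = 0.0864). HSP26, a small heat shock chaperone gene, was at -0.14 in experiment 1 and 0.51 in experiment 2, and this difference passed the test of it (0.65, limma adjusted p = 0.0485).

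Over all genes, the break effect in scc2-4 differed between the experiments for 32 of 5434 (0.589%), and 2 of these were among the 423 called over both: RNR2, and YER188C-A, which was singled out after its values were seen. Of 128 cytoplasmic ribosomal protein genes 0 passed in scc2-4 by limma, with 1 at an unadjusted p under 0.05. Among 69 respiration and TCA cycle genes 0 passed by limma, with 13 unadjusted, and of 6 genes of condensin and topoisomerase II 0, with 4 unadjusted and a median of -0.10. Of 27 heat shock chaperone genes 1 fell, against 3.94% of all genes.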

How the data were processed

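Each array (Affymetrix, Yeast Genome 2.0) gave 1 RNA sample's probe set signals. The authors deposited log2 values; the submitters' processing notes name RMA and version 2.9.2 of R, and how arrays were grouped for it is not given in the sources used here. Sorted values of scc2-4 and wild type differed by a mean of 0.0161 in experiment 1 and 0.268 in experiment 2, and those of scc2-4 by 0.165 between experiments, against up to 0.0119 between an array and its own set, so levels across these sets are on separate scales. Of 5684 probe sets, 5468 had 1 gene symbol in the platform table and 216 had none, and 34 genes had several, of which the brightest was used, leaving 5434 genes. Symbols and gene order came from the R64 gene table, whose coordinates are not used here. No gene was filtered out. From these values lmFit and eBayes (limma 3.58.1, R 4.3.3) gave the change with a break, with experiment as a block, over the 14 scc2-4 arrays and over the 13 wild-type arrays. Over all 27 arrays, with genotype by experiment strata, they gave the difference between genotypes. P-values were Benjamini-Hochberg adjusted over all genes. Counts at an unadjusted p for changes in scc2-4 stand without their share over all genes, so they cannot be read against it. The number of arrays limits the precision. The genes named were the 15 largest rises and 15 largest falls with 1 sign in both experiments, up to 4 members of each list with the largest changes, fixed damage, cohesin and control genes, and the genes within 5 places of ULI1. Members and lists were chosen with earlier results of these data known. The fit was tested on simulated data. Within each experiment and genotype the replicate numbers are shared between groups. Deviations of same-numbered arrays from their group means correlated at -0.311 to 0.701 in scc2-4 and at -0.67 to 0.689 in wild type. These values do not settle whether the numbers pair the arrays, and the main fits left the numbers out.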

Additional observations from a re-analysis of the deposited data

Results flagged for a closer look

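The break effect in scc2-4 minus that in wild type passed the limma test for these genes among those named. Positive differences on the log2 scale were 0.60 for ULI1, 0.38 for DIF1, 0.51 for ECO1, 0.51 for ROG3, 0.27 for LSB3, 0.46 for HIS2, 0.58 for CDC14, 0.31 for PTR3, 1.43 for YLR156W, 1.22 for YLR157W-E, 0.41 for ASP3-1, 0.80 for SLF1, 0.39 for ALE1 and 0.39 for DSE1. Negative ones were -1.30 for HUG1, -0.53 for RNR3, -0.91 for PLM2, -0.27 for RNR2, -0.25 for DUN1, -0.34 for DIN7, -0.32 for PCL5, -0.23 for RAD9, -0.28 for SMC1, -0.26 for PDS5, -2.36 for YLL066W-B, -1.42 for YIR042C, -0.55 for HOM3, -0.61 for ARG4, -0.29 for COS8, -0.37 for ARG7 and -0.32 for HIS1. Between the experiments, the break effect in scc2-4 was higher in experiment 2 by 0.22 for RNR2 and by 0.65 for HSP26.

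In 5 cases 1 array stood apart from the other 6 of its group by Dixon's criterion, after each experiment's mean was taken off; chance alone marks about 1 in 20 groups. RNR3 was at 9.15 in array 3 of experiment 2 with a break. RNR1 was at 10.7 in array 3 of experiment 2 without a break. DIN7 was at 8.26 in array 3 of experiment 1 with a break and at 7.79 in array 2 of experiment 2 without one. BUD4 was at 10.6 in array 1 of experiment 1 with a break.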

How the results depend on the processing

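The count of 423 genes called in scc2-4 was 401 after quantile normalization, 415 after median centring, 424 with the mean of probe sets, 350 without the dimmest 25% of genes, 409 with a trended and robust spread and 368 in the fit of all 27 arrays. It was 1273 with array weights, 24 with no experiment block, 19 in experiment 1 alone and 802 in experiment 2 alone; the cause of these shifts was not tested. Leaving out each array in turn gave 264 to 477; it was lowest without array 3 of experiment 2 of scc2-4 without a break (264) and without array 2 of experiment 2 of scc2-4 with a break (268). The replicate number as a block gave 401, of which 320 were shared, and in wild type 237 in place of 405, of which 208 were shared; same-numbered arrays did not all deviate together in either genotype. Wild type had 7 calls in experiment 1 alone and 688 in experiment 2 alone. The difference between genotypes was called for 11 genes in experiment 1 alone, against 139. The difference between experiments was called for 6 genes after median centring and 10 with a trended and robust spread, against 32.

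Of the 53 named genes called in scc2-4, 39 lost the call in experiment 1 alone, 37 with no experiment block, 6 in experiment 2 alone and 2 to 12 when 1 array was left out. Of the 31 called differences between genotypes, 24 lost the call in experiment 1 alone, 6 in experiment 2 alone and 2 after quantile normalization of all arrays together. No named gene that was called changed sign under any of these settings. Of those not called, the sign turned in experiment 1 alone for SCC4 (-0.0546), SMC3 (0.0669), PTR3 (-0.0530), CLB2 (0.0641), HSP26 (-0.139) and SOL4 (-0.00294), and for the difference between genotypes of TOS4 (0.0941) and RAD54 (0.0139). In experiment 2 alone it turned for RDH54 (0.00966), ATG18 (0.0563) and HO (0.00626), and with array weights for RDH54 (0.0125) and ATG18 (0.00216). Leaving out 1 array at a time gave -0.0491 to 0.00428 for RDH54, -0.00206 to 0.0413 for SCC4 and -0.0266 to 0.0146 for SMC3.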

Other observations

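Few genes of other lists were called in scc2-4 with a break, where 3.85% of all genes rose and 3.94% fell. Of 9 histone genes 1 rose and 0 fell, and of 21 pheromone and mating genes 1 rose and 0 fell, although 20 of the 21 were above 0 with a median of 0.08. Of 69 mitochondrial ribosomal protein genes 1 fell, and the list's median was -0.08. Of 33 genes of sulfate assimilation and methionine synthesis 1 rose and 3 fell, and of 11 silencing genes 2 fell. The count of 2 was 0 or 1 in 13 of the 14 fits that each left out 1 array, and 0 after quantile normalization.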
